A study of Mus musculus with 51 samples.

Results

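The genes examined were 10 of the 14606 genes that the 6 tissue tables list between them: Gpx2, Gsr, Gclc, Gclm, Txnrd1 and Nqo1, which are classical targets of the transcription factor NRF2, and G6pdx, Pgd, Tkt and Taldo1, 4 enzymes of the pentose phosphate pathway. They were taken by gene symbol from every table. The choice of the 10 genes was made with earlier results of these data known. All 10 were listed in duodenum, jejunum and ileum. White adipose tissue (WAT) and muscle listed 9, without Gpx2, and liver listed 8, without Gpx2 and G6pdx. The authors' tables hold only genes with at least 1 CPM (read counts scaled to a common library total) in as many libraries as the smaller group has, so a gene that is not listed lay below that level.

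All animals were male C57Bl6 mice made obese by high-fat feeding. They were operated on for Roux-en-Y gastric bypass (RYGB), which routes food from a small gastric pouch into the jejunum and past the duodenum, or given a sham operation, and tissue was taken after 9 weeks. Both groups passed through an elemental liquid diet before high-fat food was resumed, sham mice were held to the weight of the RYGB mice by restricted feeding, and all were fasted overnight. Operation and food restriction therefore cannot be told apart. The 51 libraries came from 10 mice, 5 per operation, with 5 sham and 4 RYGB libraries of duodenum, jejunum and subcutaneous WAT, 5 and 2 of ileum, 4 and 5 of liver, and 4 and 4 of skeletal muscle. The age of the mice and the intestinal limb sampled after RYGB were not stated in the labels.

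NRF2, encoded by Nfe2l2, is held low by KEAP1, which hands it to a CUL3 ubiquitin ligase. When oxidants or electrophiles modify KEAP1, NRF2 accumulates, pairs with a small MAF protein and binds antioxidant response elements, where BACH1 can compete with it as a repressor. Its targets make and recycle glutathione and thioredoxin, and they draw on NADPH. The oxidative branch of the pentose phosphate pathway, through G6PDX and PGD, makes NADPH from glucose 6-phosphate, while transketolase (Tkt) and transaldolase (Taldo1) form the non-oxidative branch, which interconverts sugar phosphates and needs no NADPH. In adipose tissue and liver the same NADPH also serves fatty acid synthesis.

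The core of an antioxidant response element can be written TGACNNNGC, and a looser form is TGANNNNGC, which every TGACNNNGC also matches. Both were looked for on both strands from 250 bases before to 50 bases after each start site in the RefSeq promoter table (build GRCm38.p6), which holds 11 promoters of 8 of the genes. Gsr and Gclc are not in that table. The sites below are shown because they lie at a listed start of genes whose levels are described next. The match is in capitals, 5′ to 3′ on the strand that carries it.
Gclm: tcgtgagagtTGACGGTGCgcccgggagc
Txnrd1: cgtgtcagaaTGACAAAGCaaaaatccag
G6pdx: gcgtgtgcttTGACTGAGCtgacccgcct
Pgd: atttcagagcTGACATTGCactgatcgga
Gpx2: cccagcaagtTGATTTTGCctggcacaga
Tkt: cggcctggggTGATTCGGCgccccgcccc
Taldo1: tgaggcttacTGAGCGCGCgtctcagtag

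The first 4 hold TGACNNNGC and the last 3 only TGANNNNGC. Distances are to the base of the match that comes first along the strand of the gene, also where the match is on the other strand. That base lies 134 bases before the start in Gclm (chr3:122245413-122245441, minus strand), 92 before in Txnrd1 (chr10:82859104-82859132, minus strand), 57 before in G6pdx (chrX:74428919-74428947, plus strand) and 3 after in Pgd (chr4:149166061-149166089, minus strand). In Gpx2 it lies 202 before (chr12:76795738-76795766, plus strand), in Tkt 37 before (chr14:30549084-30549112, plus strand) and in Taldo1 221 before (chr7:141391929-141391957, plus strand). TGACNNNGC was in 4 of the 11 promoters, beside 12.4% of 32851 promoters of the same length in the table, and TGANNNNGC was in 8 of 11, beside 41.3%. The Nqo1 window held neither. Txnrd1 and Pgd have several start sites in that table. The Txnrd1 match shown belongs to the start at 82859206. The Txnrd1 window at 82833951 held neither form, and the one at 82860341 held only TGANNNNGC. For Pgd the match belongs to the start at 149166082, and the window at 149166705 held neither form. A match is a description of the sequence only.

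Before RYGB is considered, the 10 genes already differed by tissue in the sham mice (levels in CPM, mean ± SD). The glutamate-cysteine ligase subunits stood highest in liver: Gclc, the catalytic subunit, averaged 952.3 ± 143.8 CPM there (n = 4) and 102.9 ± 18.66 CPM in the next tissue, jejunum (n = 5), and Gclm, the modifier subunit, 1002 ± 346.9 and 379 ± 58.37 CPM. For both genes the libraries of liver and jejunum did not overlap. The pentose phosphate genes listed in liver, Pgd, Tkt and Taldo1, were lowest there. Tkt averaged 1.15 ± 0.2646 CPM and Pgd 1.625 ± 1.403 CPM in sham liver, and every sham library of the gut and WAT stood at 61 CPM or more for either gene. G6pdx was highest in WAT, at 217 ± 56.77 CPM, apart from the ileum at 41.8 ± 5.562 CPM. Nqo1, a quinone reductase, was highest in muscle (37.35 ± 9.556 CPM), though muscle and duodenum (20.94 ± 5.899 CPM) overlapped. Gsr, glutathione reductase, had nearly the same level everywhere, from 87.17 ± 10.61 CPM in muscle to 149.3 ± 65.99 CPM in ileum, and each tissue overlapped its neighbour in that order. Txnrd1, thioredoxin reductase, was highest in duodenum (464 ± 117.5 CPM) and lowest in WAT (108.9 ± 5.646 CPM).

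**Figure D1:**
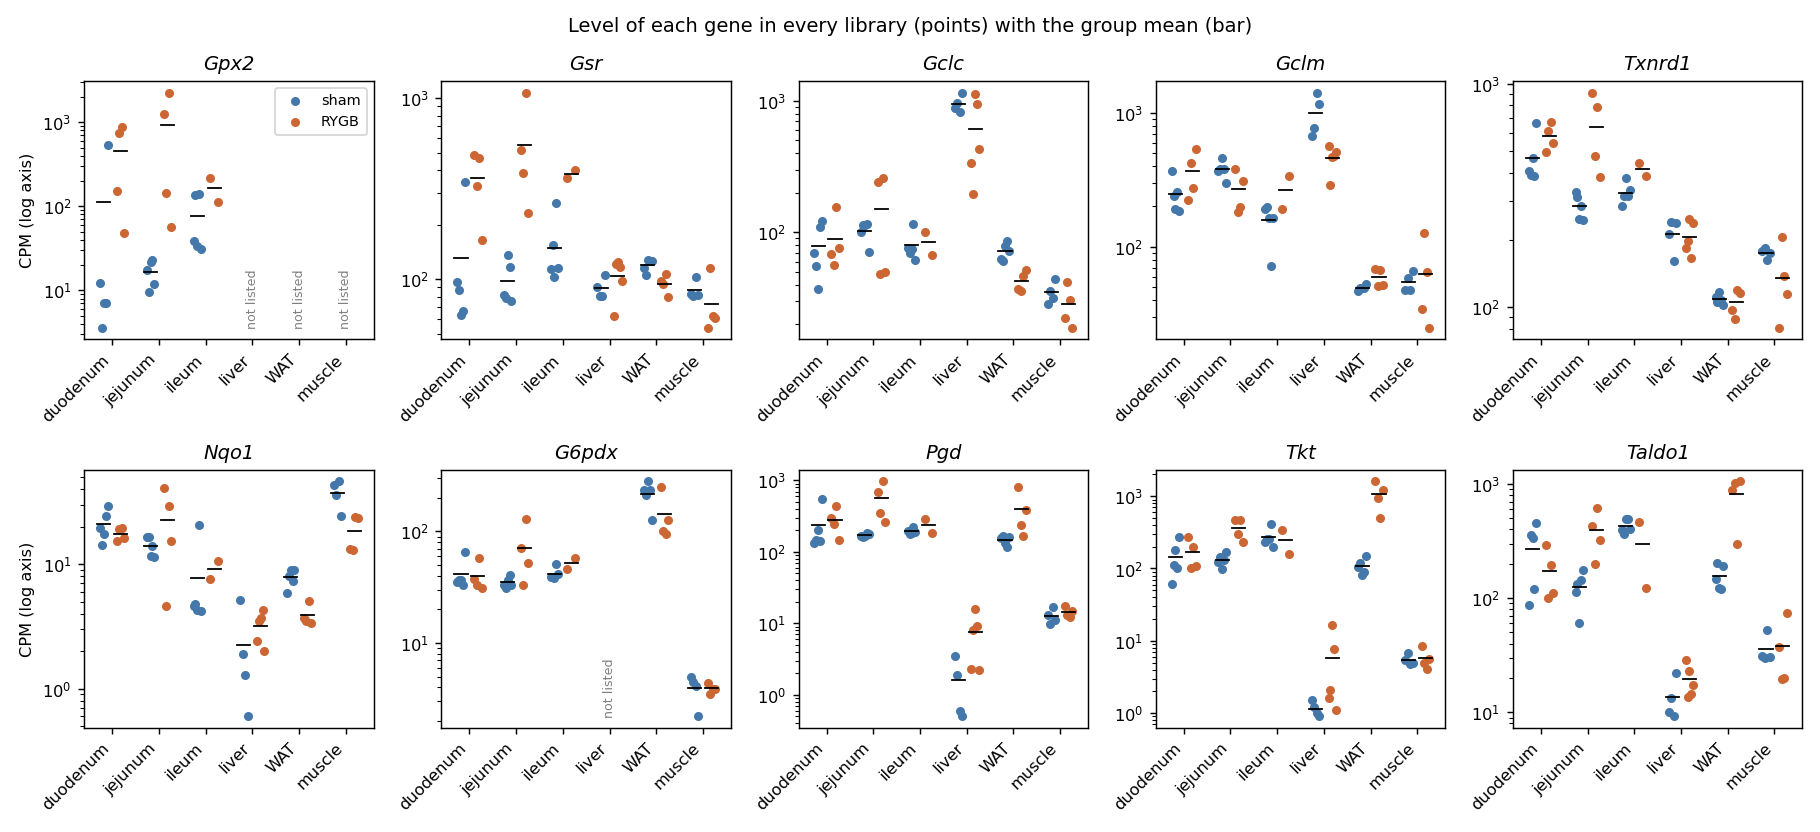
Level of each of the 10 genes in every library on a log CPM axis, by tissue, with sham and RYGB libraries as separate points and a bar at each group mean. Gpx2 in jejunum and Tkt in WAT show RYGB libraries far above the sham libraries, while Gclm in liver shows them below.

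Depth and purity limit these values. The read total is unknown for all but 4 liver libraries, whose value steps imply 4.21e+06 to 4.81e+06 counted reads. Markers of the labelled tissue were listed in full: summed enterocyte markers came to 17520 to 68370 CPM across the gut libraries, hepatocyte markers to 48060 to 124300 in liver, adipocyte markers to 19840 to 61730 in WAT and skeletal muscle markers to 92130 to 181400 in muscle. Pancreatic acinar transcripts made up over 1% of the CPM in duodenal sham 1, 2 and 3 and RYGB 2, at most 9.39%. Ileal sham 4 held summed Paneth cell markers of 43440 CPM, beside 43.5 to 725.9 CPM in the other 6 ileal libraries. In bulk tissue, fewer cells of a type and less RNA per cell cannot be told apart. Below, a difference is the RYGB mean minus the sham mean of log2(CPM + 1), given ± its SE from limma, with p-values adjusted over all genes of the tissue, and "rose" and "fell" are used only of genes with an adjusted p below 0.05.

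The jejunum had the most calls in one direction. Of the 10 genes, 6 rose and 0 fell: Gpx2, Gsr and Txnrd1 of the glutathione and thioredoxin enzymes, and Pgd, Tkt and Taldo1 of the pentose phosphate pathway. The groups of all 6 were free of overlap, which describes the same values as the test and is not further support. The share of all jejunal genes free of overlap is not given here. Of all 11021 genes tested in jejunum, 12.6% passed the threshold, 6.32% upward and 6.29% downward. The median difference was 1.26 over the 10 genes beside 0.08 over all genes. Because the 10 genes were chosen with earlier results of these data known, the comparison with all genes is a description only.

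Gpx2 encodes the glutathione peroxidase of the gastrointestinal epithelium and lies on chromosome 12 from 76792333 to 76795554 (minus strand, GRCm38, as are all gene positions here). Its jejunal level was 17.4, 9.7, 21.5, 22.9 and 11.9 CPM in sham 1 to 5, and 1238.9, 144.8, 2244.1 and 56.9 CPM in RYGB 1 to 4. Even the lowest RYGB library stood above every sham library, and the RYGB mice themselves spanned a wide range. The difference was 4.54 ± 0.93 (23.2-fold, adjusted p = 0.0172). Per kb of exon, Gpx2 had the lowest mean of the 10 genes in sham jejunum, 5.177 CPM per kb, and the highest in RYGB jejunum, 285.9 CPM per kb. That RYGB mean was carried by RYGB 1 and 3, at 384.5 and 696.5 CPM per kb. In RYGB 2 and 4 Gpx2 was at 44.94 and 17.66 CPM per kb, below Gsr at 139.2 and 84.42 CPM per kb.

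Gsr (chromosome 8, 33652523 to 33698163, plus strand) reduces oxidised glutathione with NADPH. It was measured at 81.2, 78.6, 135.5, 116.6 and 75.3 CPM in the sham mice and at 515.3, 383.4, 1069.5 and 232.5 CPM in the RYGB mice, a difference of 2.30 ± 0.38 (4.93-fold, adjusted p = 0.0077). The RYGB mice kept the order they had for Gpx2, with RYGB 3 highest and RYGB 4 lowest. Txnrd1 (chromosome 10, 82833951 to 82897712, plus strand), which reduces thioredoxin, went from 283.2 ± 36.5 CPM to 639.3 ± 251 CPM, a difference of 1.09 ± 0.25 (adjusted p = 0.0211).

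Of the 4 pentose phosphate genes, 3 rose. Pgd, 6-phosphogluconate dehydrogenase (chromosome 4, 149149991 to 149166771, minus strand), was at 161.4 to 185 CPM in all 5 sham libraries and at 682, 348.4, 966.9 and 259.6 CPM in RYGB 1 to 4, a difference of 1.51 ± 0.33 (adjusted p = 0.0187). The sham libraries lay close together and the RYGB libraries again ran from RYGB 3 down to RYGB 4. Tkt (chromosome 14, 30548359 to 30574720, plus strand) went from 132.7 ± 26.1 to 368.5 ± 122 CPM (1.42 ± 0.24, adjusted p = 0.00728), and Taldo1 (chromosome 7, 141392199 to 141402968, plus strand) from 125.2 ± 43.4 to 391 ± 175 CPM (1.60 ± 0.36, adjusted p = 0.0215). The first enzyme of the pathway, G6pdx (chromosome X, 74409483 to 74429194, minus strand), which commits glucose 6-phosphate to it and shares exon sequence with Ikbkg on the opposite strand, measured 30.9 to 40.9 CPM in sham and 70.7, 32.8, 130 and 52 CPM in RYGB jejunum, with 1 RYGB library inside the sham range (0.84 ± 0.32, adjusted p = 0.102).

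The other 3 genes did not pass the test in jejunum. Gclc (chromosome 9, 77754535 to 77794485, plus strand) split the RYGB mice: RYGB 1 and 3, at 241.4 and 261.2 CPM, lay above the sham range of 71.2 to 116.4 CPM, and RYGB 2 and 4, at 48 and 50.3 CPM, lay below it (0.14 ± 0.51, adjusted p = 0.884). Nqo1 (chromosome 8, 107388225 to 107403206, minus strand) showed the same split only in part, with 41, 4.6, 29.4 and 15.3 CPM in RYGB 1 to 4 beside 11.3 to 16.6 CPM in sham mice (0.32 ± 0.49, adjusted p = 0.702). Gclm (chromosome 3, 122245557 to 122270732, plus strand), whose exons overlap those of Gm17494 and Gm6061, was the only one of the 10 with a negative difference, −0.55 ± 0.23 (adjusted p = 0.139).

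Support was uneven across the 6 genes that rose. Gpx2, Gsr and Tkt stayed below the threshold whichever library was left out, with adjusted p-values of at most 0.049, 0.0267 and 0.0255. Without RYGB 1 the count of genes that rose was 3 instead of 6, since Txnrd1 (0.89, adjusted p = 0.0512), Pgd (1.36, 0.053) and Taldo1 (1.52, 0.0589) missed the threshold. Txnrd1 also missed it without sham 4 (adjusted p = 0.0508) or RYGB 3 (0.0608), Pgd without sham 2 (0.0511), and Taldo1 without sham 1 (0.0544), sham 2 (0.0516) or RYGB 3 (0.0555). Without RYGB 2, G6pdx passed (1.15, adjusted p = 0.0227). Markers of several cell types moved with the operation too: 5 of 6 listed Paneth cell markers, 1 of 6 stem cell markers and 1 of 9 proliferation markers rose in jejunum, and the summed Paneth markers ran from 30.3 to 119.7 CPM in sham and from 232.3 to 410.2 CPM in RYGB libraries, with Defa17 and Pla2g2a not listed. Of the ileal enterocyte markers 2 of 3 listed rose (Fabp6 not listed), with sums of 163.9 to 217.4 CPM in sham and 236.2 to 325.3 CPM in RYGB libraries, 2 of 6 goblet cell markers rose, and 2 of 8 enterocyte markers fell. The summed stem cell markers were highest in RYGB 4, at 215.4 CPM beside 21.2 to 81.9 CPM in the others, with Ascl2 and Tnfrsf19 not listed, and RYGB 4 was the RYGB library lowest in Gpx2, Gsr and Pgd. Summed macrophage markers (7 of 8 listed, Cd68 not listed, 1 higher) ran from 10.9 to 91 CPM in sham and from 14.9 to 203.7 CPM in RYGB libraries. Neutrophil markers were not listed. The part of these cells in the result was not tested beyond these values.

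**Figure D2:**
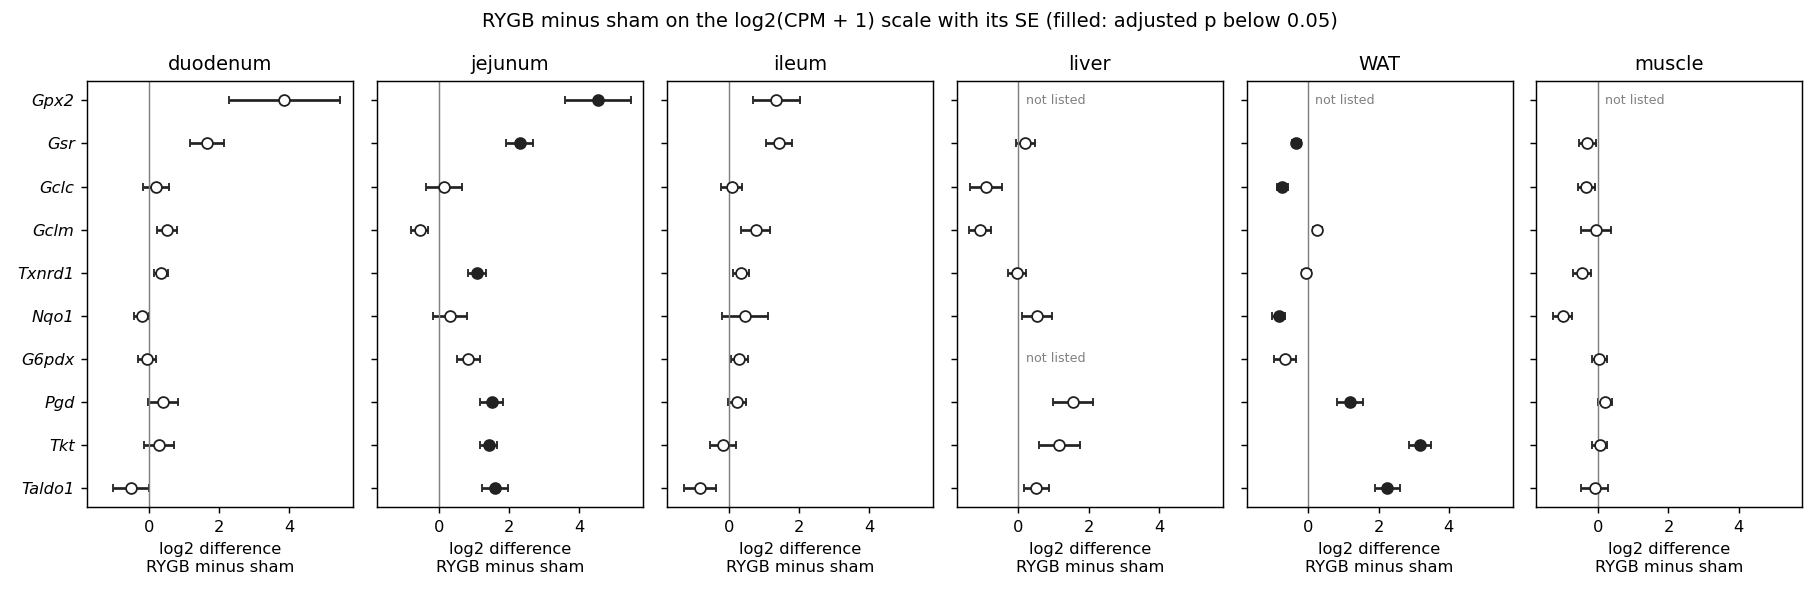
Difference between RYGB and sham on the log2(CPM + 1) scale for each gene in each tissue, as a point with its SE, filled where the adjusted p is below 0.05. The 6 filled points of jejunum all lie to the right of 0, and the 6 of WAT lie on both sides of it.

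The genes whose jejunal pattern lay closest to that of Gpx2, Gsr and Tkt were sought by the root mean square distance of log2 values, taken relative to the sham mean, over the 9 libraries and 8370 genes with a mean of at least 5 CPM. Nearest to Gpx2 were Mecom (distance 0.955), Pnliprp2 (1.02), Sprr2a3 (1.05), Cyp51 (1.13) and Mgat4c (1.19). Cyp51, an enzyme of cholesterol synthesis, had a sham mean of 13.54 ± 3.8 CPM and a RYGB mean of 264.8 ± 214 CPM, and Sprr2a3, a small proline-rich protein gene of a family of near-identical members, 4.16 ± 1.02 and 696 ± 790 CPM. Nearest to Gsr were Slc52a3 (0.402), a riboflavin transporter, Lpin1 (0.407), Slc9a3 (0.452), Endod1 (0.468) and Sfn (0.496). Slc9a3, the sodium-proton exchanger of the brush border, averaged 88.98 ± 10.1 and 629.9 ± 377 CPM. Nearest to Tkt were Coro1c (0.181), Cdkn1a (0.185), Gpi1 (0.193), Kctd10 (0.194) and Rilpl2 (0.204). Gpi1, glucose phosphate isomerase, which works on the same substrate as G6PDX, averaged 158.6 ± 16.7 and 479.3 ± 220 CPM. Within the 10 genes, the nearest to Tkt were Pgd (0.3), Txnrd1 (0.327) and Taldo1 (0.377), and the nearest to Gsr was Pgd (0.602). All of these lay farther off than the 5 genes named above for Tkt and for Gsr. Their ranks among the 8370 genes are not given here, so the distances are a description only.

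The duodenum, which food no longer passes after RYGB, gave no call for any of the 10 genes, and 2 of them had an unadjusted p below 0.05, beside 22.7% of all duodenal genes (limma). Of all 10930 genes, 0.348% were called, 0.128% upward and 0.22% downward. Gpx2 was at 12.1, 3.6, 7.1, 7.1 and 532.1 CPM in sham 1 to 5 and at 154.1, 738.7, 883.1 and 48.5 CPM in RYGB 1 to 4. The first 4 sham libraries lay below every RYGB library, and sham 5, from mouse W3, stood among them (3.86 ± 1.59, adjusted p = 0.206). Gsr had the same shape, with 63.5 to 96.5 CPM in sham 1 to 4, 342.9 CPM in sham 5 and 483.6, 326.8, 465.1 and 164.8 CPM in RYGB mice (1.66 ± 0.49, adjusted p = 0.093). Sham 5 was also the highest sham library for Pgd (545.4 CPM, the others at most 204.3), Txnrd1 (666.9, at most 464.9), G6pdx (65.8, at most 36.9), Nqo1 (29.3, at most 24.2), Tkt (270.4, at most 177.7), Taldo1 (458.2, at most 355.9) and Gclc (121.6, at most 110), and for Gclm it was the lowest (184.4 CPM). Without sham 5, Gpx2 (5.07, adjusted p = 0.0306) and Gsr (2.09, adjusted p = 0.00646) passed the threshold, as did 440 genes in all in place of 38. With sham 5 included, the groups of all 10 genes overlapped, and Taldo1 had the most negative difference, −0.50 ± 0.51 (adjusted p = 0.59).

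Sham 5 was also the highest sham library in stem cell and Paneth markers, though below every RYGB library. Its summed stem cell markers were 45 CPM, beside 22.1 to 27.2 CPM in the other sham libraries and 54 to 603.5 CPM in RYGB libraries, and its summed Paneth markers 69.7 CPM, beside 23.5 to 32.9 and 93.9 to 418.9 CPM. Its B and plasma cell sum, with 1 of 6 markers listed, was the highest of the 9 libraries at 76.4 CPM, and its pancreatic share was 0.092%. The part of these cells in its Gpx2 and Gsr levels was not tested. The jejunum and ileum of the same mouse W3 had ordinary sham levels of Gpx2, 11.9 and 31.5 CPM. Among the RYGB duodenal libraries, RYGB 4 had the highest stem cell sum, 603.5 CPM, and the lowest Gpx2. RYGB 3 had the lowest stem cell sum, 54 CPM, and the highest Gpx2. The part of stem and Paneth cells in the RYGB levels of Gpx2 was not tested. None of these values was used to group libraries.

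Libraries from several gut segments of one RYGB mouse can be set side by side. Mouse R2 had Gpx2 at 154.1 CPM in duodenum, 144.8 in jejunum and 216.7 in ileum, mouse R5 had 48.5, 56.9 and 113.2 CPM, and mouse R4 had 883.1 CPM in duodenum and 2244.1 in jejunum. The 3 mice thus kept their order in every pair of segments they share. In sham mice Gpx2 was higher in ileum than in jejunum in 5 of 5, from 31.5 to 138.7 CPM against 9.7 to 22.9 CPM. These mice are few, and the order is a description.

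**Figure D3:**
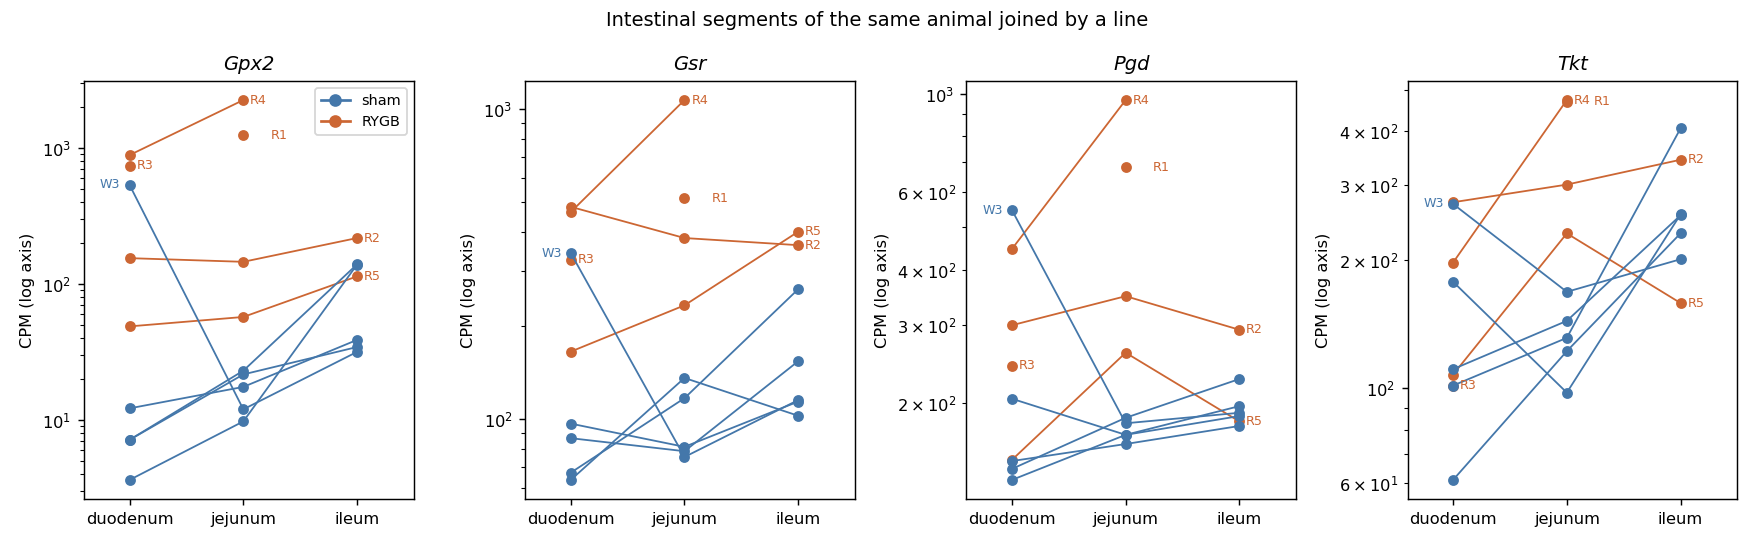
Levels of Gpx2, Gsr, Pgd and Tkt (log CPM axis) in duodenum, jejunum and ileum, with the libraries of 1 mouse joined by a line and RYGB mice labelled by their codes. The duodenum of sham mouse W3 lies at 532.1 CPM of Gpx2 and its jejunum at 11.9 CPM, among the other sham mice.

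In the ileum, with 2 RYGB libraries, none of the 10 genes was called by limma, and 1 of them, Gsr, had an unadjusted p below 0.05. Of all 12041 genes 0% were called, upward and downward alike, and 438 had an unadjusted p below 0.05. Gsr measured 113.7, 153.5, 102.3, 262.2 and 115 CPM in sham 1 to 5 and 363.6 and 402 CPM in RYGB 1 and 2, which lay above every sham library (1.44 ± 0.37, adjusted p = 1). Txnrd1 was likewise free of overlap, with 282.4 to 379.9 CPM in sham and 443.2 and 388.4 CPM in RYGB libraries (0.36 ± 0.23). Gpx2 overlapped, at 31.5 to 138.7 CPM in sham and 216.7 and 113.2 CPM in RYGB libraries (1.36 ± 0.68). Without sham 4, the library rich in Paneth cell markers, Gsr passed the threshold (1.67, adjusted p = 0.0282), among 46 genes in all. Sham 4 was also the highest sham library for Nqo1, at 20.6 CPM beside 4.2 to 4.8 CPM, and the lowest for Gclm, at 72.3 CPM beside 162.9 to 197.6 CPM. Taldo1 was inside the sham range of 360.9 to 495.5 CPM in RYGB 1 (466.4 CPM) and far below it in RYGB 2 (123.1 CPM).

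White adipose tissue moved in a different way: the non-oxidative pentose phosphate genes rose steeply, while 3 of the NRF2 targets fell. Of the 9 genes listed, 3 rose (Tkt, Taldo1, Pgd) and 3 fell (Gclc, Nqo1, Gsr). This has to be read against a tissue in which 40.6% of 12690 genes were called, 14.3% upward and 26.3% downward. The median difference was −0.06 over the 9 genes and −0.16 over all genes. Scaling by median-of-ratios moved the median over all genes up by 0.167, and single genes by somewhat more or less, so values on that scale are given beside the first. The set of calls depends on the scale: with median-of-ratios scaling Gsr lost its call (−0.16, adjusted p = 0.43) and Gclm rose (0.44, adjusted p = 0.0373).

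Tkt was at 105.3, 120.1, 81.7, 89 and 147.2 CPM in sham WAT and at 1597.7, 930.7, 496.7 and 1209.1 CPM in RYGB WAT. No library of one group came near the other, and the difference, 3.18 ± 0.31 (9.08-fold, adjusted p = 0.000103, 3.37 on the other scale), was the largest of the 9 genes. Taldo1 followed, with 147, 202.4, 122.5, 119.2 and 191.5 CPM in sham and 887, 1010.4, 298.5 and 1049.1 CPM in RYGB mice (2.25 ± 0.35, 4.74-fold, adjusted p = 0.00105, 2.43 on the other scale). RYGB 3 was the lowest RYGB library for both genes and still above all sham libraries. Pgd was at 117.1 to 168 CPM in sham and at 808.6, 236.9, 166.1 and 391.2 CPM in RYGB mice, where RYGB 3 fell inside the sham range (1.19 ± 0.37, adjusted p = 0.0268). It missed the threshold without sham 3 (adjusted p = 0.0575), sham 4 (0.0635) or RYGB 4 (0.0582).

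G6pdx did not share that rise. It was at 234.7, 211, 280.2, 233.3 and 126 CPM in sham and at 251, 100.6, 95.5 and 126.2 CPM in RYGB WAT, where RYGB 1 stood among the higher sham libraries and RYGB 4 at the lowest of them (−0.66 ± 0.30, adjusted p = 0.1). Without RYGB 1 the decrease passed the threshold (−0.97, adjusted p = 0.0138), as it did without sham 5 (−0.85, adjusted p = 0.0405). Within each library, and per kb of exon, Tkt stood at 0.122 to 0.489 times G6pdx in sham WAT and at 2.18 to 4.01 times G6pdx in RYGB WAT, and these ranges are free of any effect of scaling. The same ratio was 1.12 to 2.12 in sham and 1.53 to 3.83 in RYGB jejunum, where the groups overlapped.

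The targets that fell in WAT did so by less. Gclc went from 72.04 ± 10.8 to 42.82 ± 7.51 CPM (−0.74 ± 0.16, adjusted p = 0.00439, −0.56 on the other scale) and Nqo1 from 7.82 ± 1.28 to 3.93 ± 0.79 CPM (−0.84 ± 0.19, adjusted p = 0.00546, −0.68 on the other scale), both without overlap. Gsr, at 105.1 to 127.5 CPM in sham and 79.8 to 106.6 CPM in RYGB mice, passed narrowly (−0.35 ± 0.13, adjusted p = 0.0469) and missed the threshold on the other scale (−0.16, adjusted p = 0.43). It also missed it when sham 1, 3, 4 or 5 or RYGB 1, 2 or 4 was left out, at adjusted p-values from 0.0638 to 0.109. Gclm had a difference of 0.25 ± 0.13 (adjusted p = 0.133, but 0.44 with adjusted p = 0.0373 on the other scale), opposite in sign to Gclc. The ratio of Gclm to Gclc per kb of exon was 0.344 to 0.487 in sham and 0.604 to 1.11 in RYGB WAT, without overlap. Txnrd1 had a difference of −0.06 ± 0.13 (adjusted p = 0.719), which turned to 0.12 on the other scale.

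The marker lists of other cells also held calls in WAT, where 40.6% of all genes were called. The summed adipocyte markers (8 of 8 listed, 2 higher, 1 lower) ran from 19840 to 23570 CPM in sham and from 22730 to 61730 CPM in RYGB libraries. RYGB 4 held T and NK cell markers (8 of 8 listed, 2 higher) of 250.6 CPM beside 8.2 to 31.2 CPM in the other 8 libraries, and the summed neutrophil markers (3 of 6 listed, 2 higher, with Cxcr2, Ly6g and Retnlg not listed) ran from 4 to 11.3 CPM in sham and from 7 to 47.3 CPM in RYGB libraries. Summed hepatocyte markers (8 of 8 listed, 1 higher, 2 lower) ran from 504.5 to 1601 CPM in sham and from 2830 to 16510 CPM in RYGB libraries, without overlap. Only 1 of these 8 markers had a difference above 0, and their median difference was −0.386, so the higher sum does not describe the list. The intestinal stem cell list (5 of 8 listed, 2 lower, with Ascl2, Olfm4 and Tnfrsf19 not listed) ran from 170.8 to 241.3 CPM in sham and from 92.2 to 157.2 CPM in RYGB libraries, also without overlap. Macrophage sums (8 of 8 listed, 2 higher, 2 lower) ran from 471.2 to 768.2 and from 610.7 to 1057 CPM. The part of these cells in the result was not tested. Leaving out RYGB 4 kept Tkt and Taldo1 called, and over all libraries left out in turn their adjusted p-values were at most 0.000606 and 0.00428.

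In the liver none of the 8 genes listed was called by limma, although 4.63% of 10285 genes were, 2.03% upward and 2.6% downward. Of the 8 genes, 2 had an unadjusted p below 0.05, Gclm and Pgd, beside 33.8% of all liver genes. Gclm was at 665.8, 767.4, 1411.3 and 1161.6 CPM in sham 1 to 4 and at 565.8, 286.9, 466.8, 472.4 and 507.2 CPM in RYGB 1 to 5, so that the groups did not overlap (−1.09 ± 0.32, adjusted p = 0.0605). It passed the threshold without sham 1 (−1.27, adjusted p = 0.0402) or RYGB 1 (−1.18, adjusted p = 0.0359), when 1317 and 2253 genes were called in all. Its partner Gclc was more scattered, at 817.8 to 1149.3 CPM in sham and 195.8 to 1115.6 CPM in RYGB livers (−0.92 ± 0.47, adjusted p = 0.176).

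Pgd and Tkt were near the detection limit in liver. Pgd measured 3.5, 1.9, 0.6 and 0.5 CPM in sham and 2.3, 8, 15.8, 9.3 and 2.2 CPM in RYGB livers (1.56 ± 0.57, adjusted p = 0.09, and 1.83 with adjusted p = 0.0406 without RYGB 1). Tkt measured 0.9 to 1.5 CPM in sham and 1.6, 2.1, 16.4, 7.6 and 1.1 CPM in RYGB livers (1.17 ± 0.58, adjusted p = 0.173). RYGB 3 and 4 were the highest for both genes. They were also the highest in summed hepatocyte markers (8 of 8 listed, 1 higher), at 112200 and 124300 CPM beside 48060 to 75460 CPM in the other 7 livers. Summed macrophage markers (8 of 8 listed, 2 higher) ran from 36.9 to 124.2 CPM in sham livers and were 632.4, 421.1, 972.8, 325.1 and 63.6 CPM in RYGB 1 to 5, and neutrophil markers (3 of 6 listed, Csf3r, Ly6g and Retnlg not listed) ran from 0.3 to 2.9 CPM in sham and from 1.3 to 105.5 CPM in RYGB livers. Their part in the result was not tested. Median-of-ratios scaling lowered the median over all liver genes by 0.175. On that scale Gclm was at −1.31 and Gsr changed sign, from 0.20 to −0.02.

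Muscle gave no call among 9 genes, with 1 of them at an unadjusted p below 0.05, and 0% of 11594 genes were called in either direction, beside 811 at an unadjusted p below 0.05 (limma). Nqo1 was that gene, at 43, 35.9, 46 and 24.5 CPM in sham and 13.1, 12.9, 23.9 and 23.5 CPM in RYGB muscle. The groups did not overlap, and the difference was −1.01 ± 0.27 (adjusted p = 0.474). The other 8 genes had differences between −0.45 (Txnrd1) and 0.19 (Pgd). RYGB 2 was the highest muscle library for Gclm, at 126.3 CPM beside 24.9 to 65.7 CPM in the other 7, and for Txnrd1 and Gsr.

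Whether the difference itself varied between tissues was tested on the mice that gave both, as the jejunal minus the other tissue's log2 value within each mouse. Against WAT (5 sham and 3 RYGB mice), 5 of 9 genes were called, beside 29.5% of 10091 genes. The RYGB difference was larger in jejunum for Gsr (by 3.05 ± 0.37, adjusted p = 0.000404), Txnrd1 (1.43 ± 0.25, adjusted p = 0.00253) and G6pdx (1.44 ± 0.41, adjusted p = 0.0236), and smaller for Tkt (−1.88 ± 0.19, adjusted p = 0.000182) and Gclm (−0.83 ± 0.27, adjusted p = 0.0384). For Gsr, the jejunum minus WAT value was −0.74 to 0.09 in sham and 2.02 to 3.73 in RYGB mice. G6pdx missed the threshold without jejunal sham 1 (1.38, adjusted p = 0.0524), sham 2 (1.40, 0.0507), sham 3 (1.36, 0.0533) or RYGB 3 (0.86, 0.0704), and with median-of-ratios scaling (1.17, 0.0588). Gclm missed it without any of jejunal sham 1 to 4 or RYGB 2 or 3, at adjusted p-values from 0.0741 to 0.0934. Taldo1 (−1.02 ± 0.38, adjusted p = 0.0666) passed without jejunal sham 3 (−1.18, 0.0497) or RYGB 3 (−1.32, 0.0381) and with median-of-ratios scaling (−1.29, 0.0208). Gclc (1.30 ± 0.45, adjusted p = 0.0522) and Nqo1 (1.33 ± 0.56, 0.0961) passed without RYGB 2 (2.00, 0.00101 and 2.21, 0.00124). The count was 3 of 9 without sham 1 or sham 2.

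Against muscle (4 sham and 3 RYGB mice), 5 of 9 genes were called, beside 10.1% of 9535 genes, and all 5 differences were larger in jejunum: Gsr by 3.02 ± 0.47 (adjusted p = 0.00727), Txnrd1 by 1.67 ± 0.45 (0.0478), Pgd by 1.65 ± 0.36 (0.0249), Tkt by 1.48 ± 0.30 (0.019) and Taldo1 by 1.91 ± 0.41 (0.0224). Gsr alone was called whichever mouse was left out, and the count was 1 of 9 without the jejunal sham 1, 2 or 4. Txnrd1 was also lost without sham 5 or RYGB 1 or 3 (adjusted p up to 0.112) and Pgd without RYGB 1 (0.0587), where Gclm was called (−1.63, 0.0482). Without jejunal RYGB 2 it was 8 of 9, with Gclc (1.72, adjusted p = 0.0183), Nqo1 (2.21, 0.00996) and G6pdx (1.36, 0.0416) added. Against duodenum, ileum and liver, no gene of the 10, 10 and 8 tested was called by limma, beside 0.947%, 0% and 0.101% of all genes, and 2, 3 and 4 of them had an unadjusted p below 0.05, beside 20.3%, 5.91% and 18.1% of all genes. The jejunal rise of Gpx2 was thus not shown to differ from the values in duodenum (0.62 ± 1.33, adjusted p = 0.834) or ileum (1.09 ± 0.88, adjusted p = 0.999).

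Nfe2l2, the gene for NRF2 itself, measured 1052.5, 901.4, 762.4, 649.6 and 710.7 CPM in sham and 430.5, 424, 260.3 and 557.9 CPM in RYGB jejunum, and fell without overlap (−0.99 ± 0.23, adjusted p = 0.022). RYGB 3, the library highest in Gpx2, Gsr and Pgd, was the lowest RYGB library in Nfe2l2, and RYGB 4 was the reverse. The decrease missed the threshold without sham 1 (−0.89, adjusted p = 0.0578), sham 2 (−0.95, 0.0597) or RYGB 3 (−0.78, 0.0527). In the list of 10 pathway regulators, which also holds the small MAF genes, 1 rose (Maff, 0.98 ± 0.29, adjusted p = 0.0467) and 1 fell (Nfe2l2). Maff missed the threshold with median-of-ratios scaling (adjusted p = 0.0601) and without any 1 of the 9 libraries, RYGB 4 excepted, at adjusted p-values up to 0.127. Keap1 (0.32 ± 0.29, adjusted p = 0.497) and Bach1 (0.38 ± 0.22, adjusted p = 0.254) did not pass. In liver Nfe2l2 measured 119.9 to 252.4 CPM in sham and 60.8 to 107.8 CPM in RYGB mice and fell (−1.10 ± 0.29, adjusted p = 0.0497), the only regulator called of 10. That call was lost without sham 2, 3 or 4 or RYGB 2, 3, 4 or 5, at adjusted p-values up to 0.163. In WAT 2 of 10 regulators rose and 3 fell, in a tissue where 40.6% of all genes were called. Keap1 rose (0.59 ± 0.17, adjusted p = 0.018), and Mafk (−2.14 ± 0.21, adjusted p = 0.000102), Maff (−1.58 ± 0.52, adjusted p = 0.0314) and Bach1 (−0.93 ± 0.23, adjusted p = 0.00929) fell, while Nfe2l2 did not pass (−0.45 ± 0.17, adjusted p = 0.0559, and 0.0195 without RYGB 3). Maff missed the threshold with median-of-ratios scaling (adjusted p = 0.0742) and without sham 1, 3 or 4 or RYGB 1, 3 or 4 (up to 0.0792). None of the regulators was called in duodenum, ileum or muscle.

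Of 22 other NRF2 targets listed in jejunum, 2 rose and 0 fell, with a median of 0.466: Srxn1, sulfiredoxin, went from 162.8 ± 14.8 to 446 ± 204 CPM (1.32 ± 0.29, adjusted p = 0.0183) and Abcc3, an organic anion exporter, from 67.22 ± 18.5 to 231.8 ± 119 CPM (1.56 ± 0.45, adjusted p = 0.049). Of 23 other glutathione and thioredoxin enzymes, 4 rose, among them glutathione synthetase (Gss, 1.28 ± 0.37, adjusted p = 0.0477), Gpx1 (0.79 ± 0.18, adjusted p = 0.0215) and Prdx6 (0.81 ± 0.24, adjusted p = 0.0485), and catalase (Cat) fell from 1225 ± 444 to 487.7 ± 375 CPM (−1.51 ± 0.40, adjusted p = 0.0364). Of 16 other pentose phosphate and NADPH enzymes, 5 rose and 2 fell. H6pd, the endoplasmic reticulum counterpart of G6PDX, rose from 13.18 ± 3.09 to 45.98 ± 27.9 CPM (1.57 ± 0.35, adjusted p = 0.0199), while Idh1, a cytosolic source of NADPH, fell from 754.9 ± 85.2 to 358.4 ± 115 CPM (−1.12 ± 0.22, adjusted p = 0.0121). The lists are read against the 12.6% of all jejunal genes that were called. Idh1 was called whichever library was left out (adjusted p at most 0.0401). Srxn1 missed the threshold without sham 2 (0.0503) or RYGB 3 (0.0517), Gpx1 without sham 4 (0.0578) or RYGB 3 (0.0607), and H6pd without sham 1 (0.0527), sham 2 (0.0542) or RYGB 3 (0.0521). Abcc3, Gss, Prdx6 and Cat were each lost in 7 or 8 of the 9 fits that leave out 1 library, at adjusted p-values up to 0.125, and Abcc3 and Prdx6 also with median-of-ratios scaling (0.063 and 0.136).

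In WAT these lists held more calls, as did the tissue as a whole. There 40.6% of 12690 genes were called, 14.3% upward and 26.3% downward. Of 22 other NRF2 targets 9 rose and 3 fell, of 26 other glutathione and thioredoxin enzymes 13 rose and 2 fell, and of 17 other pentose phosphate and NADPH enzymes 6 rose and 2 fell. Gsta4 and Gsta3, glutathione transferases of a family of close relatives, rose (1.71 ± 0.26, adjusted p = 0.000838, and 1.51 ± 0.21, adjusted p = 0.000526), as did Gpx8 (2.68 ± 0.27, adjusted p = 0.000121), Prdx3 (1.33 ± 0.20, adjusted p = 0.000757) and Sod2 (1.51 ± 0.23, adjusted p = 0.000887). Aox1 (−1.35 ± 0.17, adjusted p = 0.000335), Ephx1 (−1.60 ± 0.26, adjusted p = 0.00123) and Sod3 (−1.22 ± 0.15, adjusted p = 0.000335) fell. Pgls, the lactonase between G6PDX and PGD, rose from 14.06 ± 1.56 to 64.85 ± 36.3 CPM (1.96 ± 0.32, adjusted p = 0.00116), and Rpe, an epimerase of the non-oxidative branch, from 67.82 ± 6.69 to 117.2 ± 13.1 CPM (0.78 ± 0.13, adjusted p = 0.00116). H6pd fell from 531.1 ± 98.1 to 226.6 ± 69.8 CPM (−1.26 ± 0.23, adjusted p = 0.00198), opposite to its sign in jejunum; that contrast was not tested.

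In the other tissues the lists held few calls. In duodenum the ferritin heavy chain gene Fth1 fell from 5127 ± 2110 to 1227 ± 283 CPM (−2.01 ± 0.29, adjusted p = 0.023) and Ephx1 from 19.58 ± 5.82 to 4.78 ± 2.44 CPM (−1.86 ± 0.32, adjusted p = 0.0398), the only 2 calls among 22 other targets, with 0 among 23 glutathione and thioredoxin and 17 NADPH enzymes. Both were lost without the libraries over 1% pancreatic (−1.75 and −1.43, adjusted p = 0.939) and without sham 1, 2 or 3 or RYGB 1 or 4, at adjusted p-values up to 0.156. In liver 0 of 23 other targets were called, and of the enzymes Prdx4 (2.76 ± 0.68, adjusted p = 0.045) and Aldh1l1 (3.00 ± 0.66, adjusted p = 0.0392) rose and Prps2 (−1.21 ± 0.30, adjusted p = 0.0468) fell. All 3 were lost without sham 2, 3 or 4 or RYGB 2, 3 or 4, at adjusted p-values up to 0.156, and the number of liver genes called ran from 3 to 2253 as single libraries were left out. Ileum and muscle held 0 calls in all 3 lists.

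**Figure D4:**
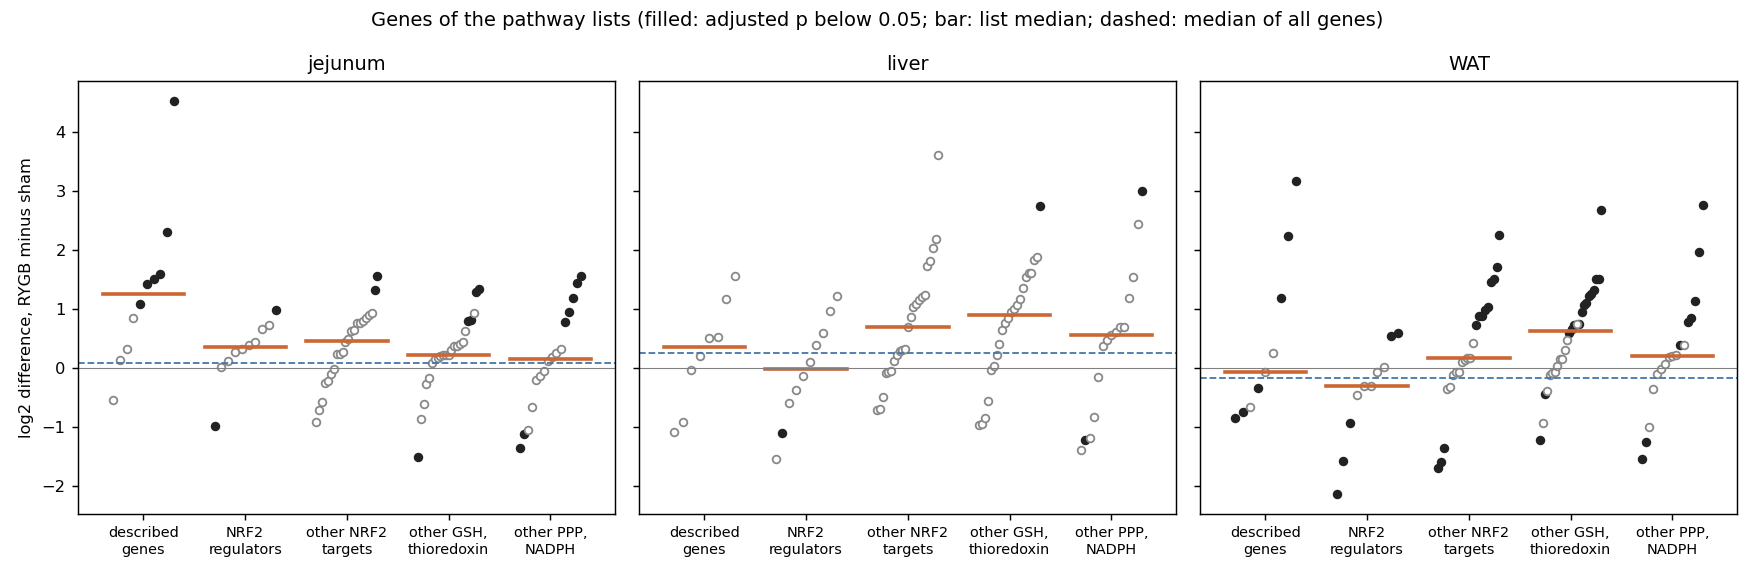
Difference between RYGB and sham on the log2(CPM + 1) scale for each gene of 5 lists in jejunum, liver and WAT, filled where the adjusted p is below 0.05, with a bar at the list median and a dashed line at the median of all genes. In jejunum the 10 genes have the highest list median, 1.26, and in WAT their values spread from −0.84 to 3.18. All lists were chosen with earlier results of these data known.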

How the data were processed

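RNA was sequenced from 51 libraries of 6 tissues, 1 table per tissue. HTSeq and the build GRCm38 are named in the submitters' processing notes. The sources used here do not state the aligner, annotation release or strand setting, so reads of genes that overlap on opposite strands cannot be told apart. The authors deposited CPM values, which are counts scaled to a total of 1000000 per library, to 1 decimal. Totals were 978879 to 993560.1 CPM per library, and depth is unknown but for 4 liver libraries. Repeated lines (339 in ileum, 374 in WAT) and lines without an identifier (2 in ileum, 6 in liver) were left out.

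Per tissue, limma 3.58.1 (R 4.3.3, trend and robust eBayes) was run two-sided on log2(CPM + 1) over all genes, adjusted by Benjamini-Hochberg, at a threshold of 0.05. Python 3.11.15 and pandas 2.3.3 made the remaining summaries. Libraries were grouped by the surgery and tissue fields. The source field of the RYGB muscle libraries names sham, and their title and surgery field were followed. Mice, matched by their codes, were the replicates, so p-values measure the spread between mice. Between-tissue tests used within-mouse differences. Alternatives were median-of-ratios scaling, a pseudocount of 0.1, a mean of at least 5 CPM, the replicate number as a block, no trend or robust option, each library left out, and, in duodenum, removal of pancreatic genes or of libraries with over 1% of them. The fit was tested on simulated data with known changes.

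The 10 genes and all lists were chosen with earlier results of these data known. The text names the 10 genes, Nfe2l2, Keap1, Bach1 and 5 nearest genes each for Gpx2, Gsr and Tkt. Other named genes come from the up to 4 called genes of smallest adjusted p and up to 2 of highest level per list and tissue. Not all of those are named. Mthfd2 and Aldh1l1 in jejunum and Aldh1l1 in WAT, which were called, are among those left out.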

Additional observations from a re-analysis of the deposited data

Results flagged for a closer look

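Single libraries lay far from the rest of their group in 10 of the 102 groups of 4 or 5 libraries checked (Dixon's criterion, under which chance gives about 1 in 20, or 5.1). In duodenum these were all sham 5: Gpx2 at 532.1 CPM (the nearest sham library at 12.1), Gsr at 342.9 CPM (96.5) and G6pdx at 65.8 CPM (36.9). In ileum both were sham 4, with Gclm at 72.3 CPM (162.9) and Nqo1 at 20.6 CPM (4.8), and in muscle both were sham 3, with Gsr at 103 CPM (83.2) and Taldo1 at 52.4 CPM (30.8). The others were Gclc in jejunal sham 5 at 71.2 CPM (101), Gclm in liver RYGB 2 at 286.9 CPM (466.8) and Taldo1 in WAT RYGB 3 at 298.5 CPM (887).

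The RYGB difference itself differed between jejunum and WAT, in the within-mouse limma test, for Gsr (3.05), Txnrd1 (1.43), G6pdx (1.44), Gclm (−0.83) and Tkt (−1.88), and between jejunum and muscle for Gsr (3.02), Txnrd1 (1.67), Pgd (1.65), Tkt (1.48) and Taldo1 (1.91), all as jejunum minus the other tissue in log2 units. The jejunal libraries are common to both sets of tests.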

How the results depend on the processing

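Of 141 counts of the 10 genes under an alternative, 126 stayed within 1.5 times the main count. With the replicate number as a block the count went from 0 to 2 in duodenum, 6 to 3 in jejunum, 0 to 1 in ileum and 5 to 1 for jejunum minus muscle. The numbers name different mice and pair nothing (correlations of same-numbered deviations ran from −0.352 to 0.556), and the block drops libraries without a partner. With 1 library left out the counts ran from 0 to 2 in duodenum, 3 to 7 in jejunum, 0 to 1 in ileum, 0 to 2 in liver, 4 to 6 in WAT, 3 to 6 for jejunum minus WAT and 1 to 8 for jejunum minus muscle. The number of genes called among all those tested ran from 1 to 982 in duodenum, 484 to 2258 in jejunum and 3 to 2253 in liver, so adjusted p-values there move with the library left out.

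Of 1300 single values of the 10 genes, 1170 kept their direction and side of the threshold, 58 lost the call, 24 gained it and 48 reversed. With Nfe2l2, 26 results reversed under some alternative, 0 of them called; the cause was not tested. The block gave 0.12 for G6pdx in duodenum, −0.92 for Gpx2 and −0.12 for Gsr in jejunum minus duodenum, 0.011 for G6pdx in jejunum minus ileum and 0.75 for Nqo1 in jejunum minus liver. Duodenum without libraries over 1% pancreatic gave −0.30 for Gclc and −0.040 for Pgd, scaling gave −0.022 for Gsr in liver and 0.12 for Txnrd1 in WAT, and a pseudocount of 0.1 gave −0.29 for Pgd in jejunum minus liver. With 1 library left out, the values that changed sign ran, in duodenum, from −0.11 to 0.38 (Gclc) and −0.24 to 0.12 (G6pdx); in jejunum, from −0.27 to 0.54 (Gclc) and −0.076 to 0.89 (Nqo1); in ileum, from −0.20 to 0.37 (Gclc), −0.10 to 0.58 (Pgd), −0.72 to 0.39 (Tkt), −1.78 to 0.13 (Taldo1) and −0.052 to 0.78 (Nfe2l2); in liver and WAT, for Txnrd1, from −0.17 to 0.034 and −0.12 to 0.019; in muscle, from −0.49 to 0.27 (Gclm), −0.17 to 0.13 (G6pdx), −0.13 to 0.17 (Tkt), −0.49 to 0.13 (Taldo1) and −0.54 to 0.38 (Nfe2l2). Between tissues they ran from −0.69 to 1.04 (Gpx2) and −0.28 to 0.77 (Nqo1) against duodenum, −0.23 to 0.64 (Gsr) and −0.23 to 0.11 (G6pdx) against ileum, −0.56 to 0.54 (Nqo1) and −0.16 to 0.64 (Pgd) against liver, and −0.084 to 0.69 (Pgd) against WAT. Depth is unknown for most libraries, so levels near 1 CPM, such as Tkt and Pgd in liver, carry an unknown counting error.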
